A study of Mus musculus with 6 samples.

Results

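The B cell lineage genes followed here are 9 genes that identify B cells or carry the signal of the B cell receptor: Ms4a1, Cd79a, Cd79b, Pax5, Blk, Cr2, Fcmr, Fcrla and Pou2af1. They were taken by symbol from the 22063 genes of the count table, and all 9 were found. Their RNA was measured by bulk RNA sequencing in bladder tumours of female mice from an immunocompetent model in which the cancer arises spontaneously. All 6 tumours came from animals given an anti-PD-1 antibody once tumours had formed. The labels call 3 of them non-responsive and 3 responsive, and no untreated tumour is part of the comparison. The sources used here do not state the strain, age, dose, time of sampling or criterion of response. Nor do they say that each tumour is from its own animal, and the p-values then speak only of the spread among these 6 samples, which may be technical.

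B cells recognise antigen through a surface immunoglobulin that has no signalling tail of its own. The signal is carried by the Cd79a and Cd79b proteins, which pair beside the immunoglobulin, and it is passed on by Src family kinases such as the product of Blk. The identity of the cell is held by transcription factors, among them Pax5, and Pax5 and many of its targets are switched down when a B cell becomes an antibody-secreting plasma cell. In tumours, B cells can lie scattered or in lymphoid aggregates together with T cells, and both have been studied in patients given checkpoint blockade.

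Promoter sequences in the RefSeq table (build GRCm38.p6, 250 bases before to 50 bases after the start of transcription) were found for 6 of the 9 genes, and are not used here for Ms4a1, Cd79b and Blk. They are shown for 4 genes, because these span the genes that stood furthest from each other in the tumours described next: Cr2 and Cd79a with a large excess in one tumour, Fcmr with a small one, and Pou2af1, itself a coactivator of B cell promoters. Each runs 5′ to 3′ along the gene, and capitals mark the core letters bound by PU.1, GAGGAA on either strand.

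Cd79a promoter (chr7:24897247-24897546, plus strand): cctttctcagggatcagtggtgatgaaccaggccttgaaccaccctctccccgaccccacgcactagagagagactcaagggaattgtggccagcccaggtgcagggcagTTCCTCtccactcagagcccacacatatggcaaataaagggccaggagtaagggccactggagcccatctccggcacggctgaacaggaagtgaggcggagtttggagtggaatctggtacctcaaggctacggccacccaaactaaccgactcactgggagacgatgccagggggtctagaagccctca

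Pou2af1 promoter (chr9:51213440-51213739, plus strand): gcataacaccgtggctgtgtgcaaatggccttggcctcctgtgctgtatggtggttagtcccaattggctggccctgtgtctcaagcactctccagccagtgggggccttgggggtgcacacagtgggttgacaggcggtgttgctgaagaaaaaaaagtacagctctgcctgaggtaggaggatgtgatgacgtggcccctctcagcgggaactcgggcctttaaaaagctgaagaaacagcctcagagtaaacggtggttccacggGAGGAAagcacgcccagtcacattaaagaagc

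Fcmr promoter (chr1:130865527-130865826, plus strand): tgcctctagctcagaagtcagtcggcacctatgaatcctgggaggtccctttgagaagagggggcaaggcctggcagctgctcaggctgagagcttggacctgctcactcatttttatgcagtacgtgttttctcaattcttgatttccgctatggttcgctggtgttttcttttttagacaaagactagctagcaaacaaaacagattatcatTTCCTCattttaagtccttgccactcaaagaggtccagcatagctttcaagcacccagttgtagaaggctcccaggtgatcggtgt

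Cr2 promoter (chr1:195176670-195176969, minus strand): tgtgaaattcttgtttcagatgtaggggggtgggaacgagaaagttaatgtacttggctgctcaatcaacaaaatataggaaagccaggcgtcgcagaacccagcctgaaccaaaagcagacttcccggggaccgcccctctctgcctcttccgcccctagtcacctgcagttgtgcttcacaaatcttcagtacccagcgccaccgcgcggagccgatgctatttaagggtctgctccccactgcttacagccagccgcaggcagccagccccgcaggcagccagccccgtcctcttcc

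The letters GAGGAA, or TTCCTC on the other strand, stood in 4 of the 6 promoters, those of Cd79a, Fcmr, Fcrla and Pou2af1. They were held by 28.3% of all 32851 promoters listed there. The first base of the match lay 140 bases before the start of transcription in Cd79a, 36 before it in Fcmr and 37 before it in Fcrla. In Pou2af1 it lay at base 19 after the start. The octamer ATGCAAAT (ATTTGCAT on the other strand), the site at which the Pou2af1 protein joins its Oct partners on DNA, was in none of the 6 windows and in 1.74% of all promoters. The EBF letters CCCNNGGG, a palindrome, were in none of the 6 and in 13.7% of all. A match is a description of letters only.

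All 9 genes were highest in 1 tumour, non-responsive replicate 2. Their levels in CPM, counts scaled by library size with edgeR's TMM factors, added up to 93.3 in that tumour, whereas replicates 1 and 3 of the same group reached 22.1 and 16.9. The responsive tumours, taken in the order of their numbers, reached 23.9, 18.1 and 18.1 CPM. Whether a lower level means fewer B cells or less RNA per cell cannot be told apart in bulk tissue. Outside that tumour, 1 non-responsive sum lay within the responsive range and 1 below it. Over all genes tested, 23.4% had their highest value in non-responsive replicate 2.

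Cd79a (ENSMUSG00000003379, chromosome 7, 24897381 to 24902197) encodes the alpha chain of the signalling pair. Taking replicates 1, 2 and 3 in turn, as for all values that follow, it was at 2.32, 17.4 and 3.52 CPM in the non-responsive tumours and 5.20, 2.60 and 2.84 CPM in the responsive ones. The groups overlapped, with responsive replicate 1 above 2 of the non-responsive tumours and non-responsive replicate 1 the lowest of all. The group means were 7.75 ± 8.39 and 3.55 ± 1.43 CPM (SD, n = 3 per group). The fitted log2 difference, non-responsive minus responsive, was 1.12 ± 0.79 (SE; edgeR adjusted p = 0.530).

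Its partner Cd79b (ENSMUSG00000040592, chromosome 11, 106311341 to 106314762) was the most even of the 9. It was at 5.17, 9.56 and 2.96 CPM in the non-responsive tumours and 5.51, 4.13 and 4.04 CPM in the responsive ones. Non-responsive replicate 2 was again highest, but at 2.32 times the median of the other 5 tumours, where Cd79a stood at 6.12 times. The lowest Cd79b value also belonged to a non-responsive tumour, replicate 3. The log2 difference was 0.37 ± 0.48 (SE; edgeR adjusted p = 0.734).

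Blk (ENSMUSG00000014453, chromosome 14, 63372836 to 63417037), the kinase next to the receptor, is also found in some T cells. Its values were 0.596, 3.34 and 0.463 CPM in the non-responsive tumours and 1.08, 0.571 and 1.03 CPM in the responsive ones. After non-responsive replicate 2, responsive replicates 1 and 3 came next, and responsive replicate 2 lay between the other non-responsive tumours. The log2 difference was 0.70 ± 0.85 with all tumours (SE; edgeR adjusted p = 0.712), and -0.75 ± 0.62 without non-responsive replicate 2 (edgeR adjusted p = 0.687). These rest on 9 to 57 counts per tumour.

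Ms4a1 (ENSMUSG00000024673, chromosome 19, 11249675 to 11266241) encodes CD20, the surface protein targeted by B cell depleting antibodies. It was at 2.25, 15.9 and 3.84 CPM in the non-responsive tumours and 4.11, 2.03 and 1.52 CPM in the responsive ones. Responsive replicate 1 was second highest and responsive replicate 3 lowest. The difference within the responsive group was itself beyond counting error: 91 counts in replicate 1 gave a 95% Poisson interval of 3.31 to 5.05 CPM, and 37 counts in replicate 3 gave 1.07 to 2.10 CPM. Such intervals cover counting error only. The log2 difference between groups was 1.52 ± 0.80 (SE; edgeR adjusted p = 0.443).

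Cr2 (ENSMUSG00000026616, chromosome 1, 195136811 to 195176716) encodes the complement receptors of mature B cells and follicular dendritic cells. It had the lowest level and the widest gap. It was counted 2, 57 and 8 times in the non-responsive and 9, 4 and 11 times in the responsive tumours. This is 0.133, 3.34 and 0.370 CPM against 0.407, 0.254 and 0.453 CPM. Non-responsive replicate 2 stood at 9.02 times the median of the other tumours, among which every counting interval overlapped every other. In non-responsive replicate 1 the 2 counts gave an interval of 0.016 to 0.479 CPM. Cr2 was the 1 member that the expression filter removed, so it has no edgeR test. DESeq2, which kept it, gave an adjusted p of 0.479.

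Fcmr (ENSMUSG00000042474, chromosome 1, 130865669 to 130880791), the Fc receptor for IgM, was at 0.928, 2.52 and 0.556 CPM in the non-responsive tumours and 1.54, 0.635 and 0.989 CPM in the responsive ones. It is the 1 member for which the counting interval of non-responsive replicate 2 (1.82 to 3.40 CPM) met that of another tumour, responsive replicate 1 (1.06 to 2.15 CPM). For the other 8 members the interval of non-responsive replicate 2 lay above those of all other tumours. The log2 difference of Fcmr was 0.33 ± 0.70 (SE; edgeR adjusted p = 0.844).

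Fcrla (ENSMUSG00000038421, chromosome 1, 170917576 to 170927583) encodes an Fc receptor relative that stays inside the cell. It was at 1.79, 4.98 and 0.926 CPM in the non-responsive tumours and 1.22, 1.21 and 0.824 CPM in the responsive ones. Non-responsive replicate 1 was second highest here. The log2 difference was 1.24 ± 0.69 (SE; edgeR adjusted p = 0.462).

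Pax5 (ENSMUSG00000014030, chromosome 4, 44524757 to 44710487), the transcription factor that commits cells to the B lineage, was at 0.861, 5.45 and 1.20 CPM in the non-responsive tumours and 0.542, 0.952 and 0.907 CPM in the responsive ones. The 5 tumours other than non-responsive replicate 2 lay within overlapping counting intervals, on 12 to 26 counts each. Its log2 difference of 1.64 ± 0.80 was the largest of the members tested (SE; unadjusted p = 0.0789, edgeR adjusted p = 0.424).

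Pou2af1 (ENSMUSG00000032053, chromosome 9, 51213708 to 51240080) encodes the coactivator that binds Oct factors at octamer sites. It had the highest mean CPM of the members. It was at 8.02, 30.7 and 3.06 CPM in the non-responsive tumours and 4.29, 5.71 and 5.48 CPM in the responsive ones. The 3 responsive values lay close together, while the non-responsive tumours took the 2 highest places and the lowest. The group means were 13.9 ± 14.8 and 5.16 ± 0.762 CPM (SD, n = 3 per group), a log2 difference of 1.43 ± 0.77 (SE; edgeR adjusted p = 0.450).

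**Figure D1:**
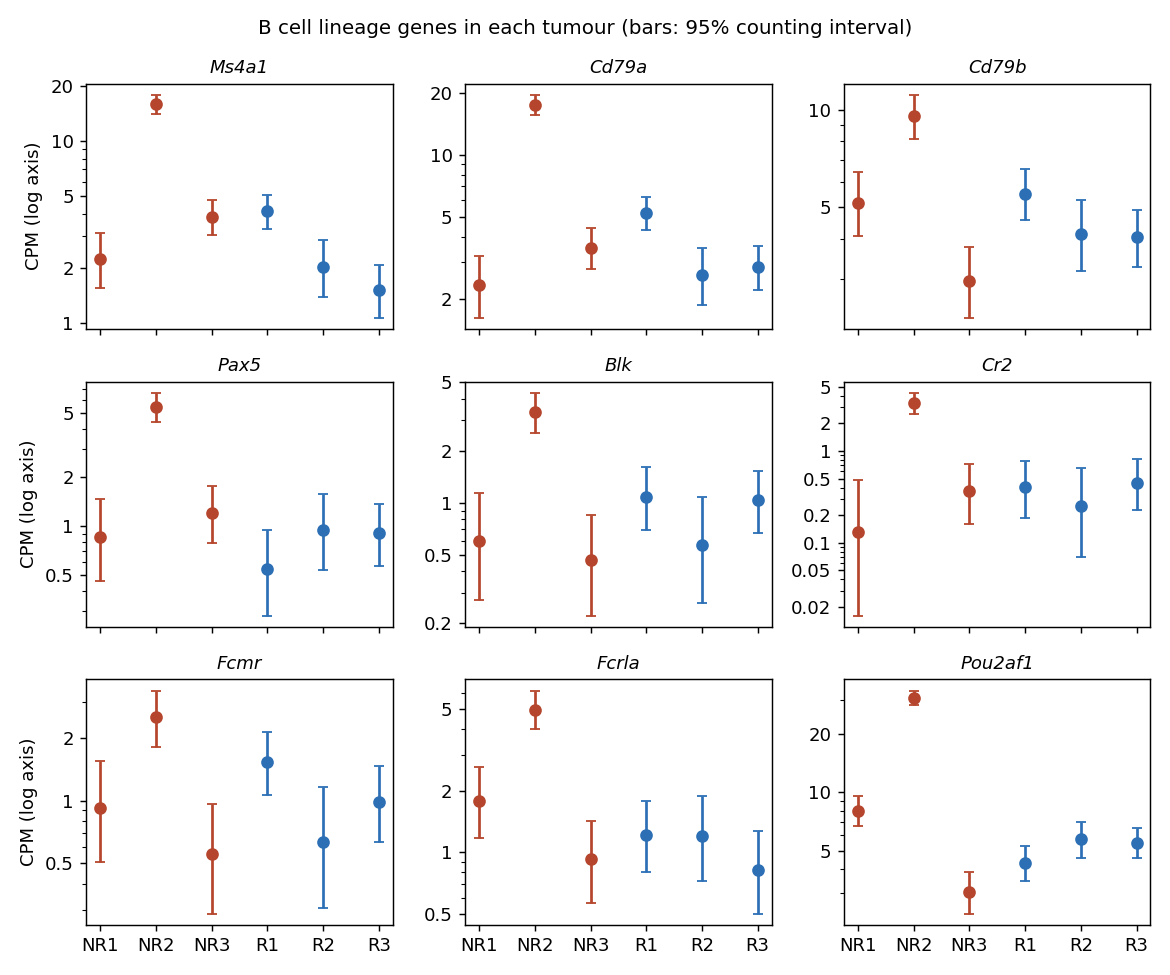
CPM of each B cell lineage gene (vertical log axis, 1 panel per gene) in the non-responsive (NR1 to NR3, red) and responsive tumours (R1 to R3, blue), with points for the value and bars for its 95% Poisson counting interval. NR2 is the highest point in all 9 panels, and the other 5 tumours overlap between groups.

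The groups were compared to ask whether these genes differ with resistance to the antibody. None of the 8 members tested passed the edgeR quasi-likelihood test, where 0% of the 14505 genes tested did. None had an unadjusted p under 0.05, against 12.6% of all genes tested, and none of the 9 passed DESeq2, which called 2.97% of the genes it adjusted. For 0 of the 9 members did the values of the groups lie apart, against 17.7% of all genes tested. All 8 log2 differences were above 0, from 0.33 to 1.64 with a median of 1.18, where 51% of all genes tested were above 0 and their median was 0.014.

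Without non-responsive replicate 2 the direction was lost. The median log2 difference was -0.020, with 4 of 8 members above 0 and 51.1% of all genes above 0. Cd79a then differed by -0.26 ± 0.51, Cd79b by -0.15 ± 0.43 and Fcmr by -0.51 ± 0.66 (SE), so that the responsive tumours were on average the higher ones, with Blk. Pax5 differed by 0.40 ± 0.57, Fcrla by 0.33 ± 0.57, Ms4a1 by 0.27 ± 0.60 and Pou2af1 by 0.11 ± 0.49 (SE). Apart from that of Blk, each difference was smaller than its standard error. No member passed edgeR (0% of all genes tested did). At an unadjusted p under 0.05 there were 0 members, against 10% of all genes.

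**Figure D2:**
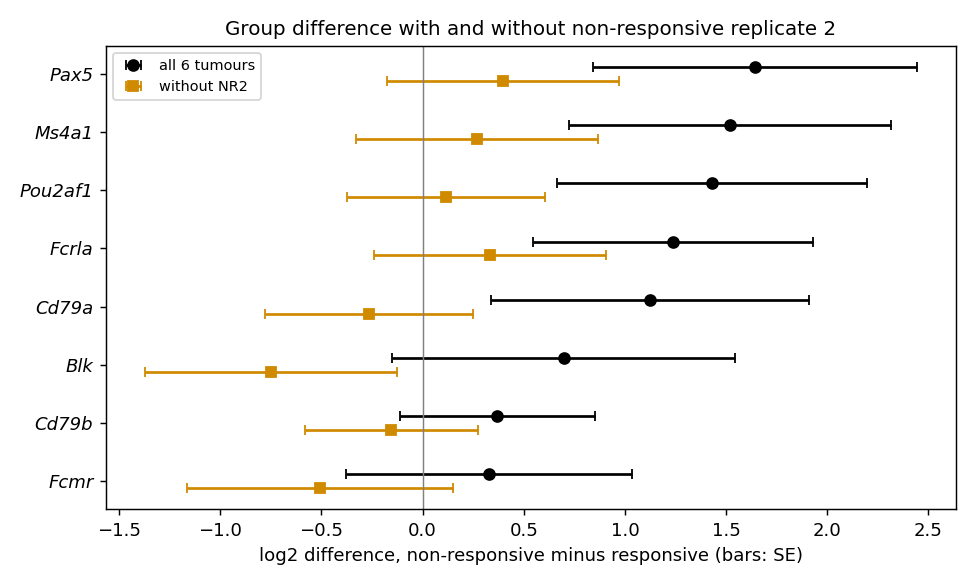
Log2 difference, non-responsive minus responsive, for the 8 members that passed the expression filter (points, edgeR; bars, 1 SE), with all 6 tumours in black and without non-responsive replicate 2 in orange. All 8 black points lie above 0, and 4 of the orange points lie below it.

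Among the 5 tumours other than non-responsive replicate 2 the members did not keep 1 order. Responsive replicate 1 was the highest of these 5 for Ms4a1, Cd79a, Cd79b, Blk and Fcmr (5 of 9 members; 20.8% of all genes tested). Non-responsive replicate 1 led for Fcrla and Pou2af1, non-responsive replicate 3 for Pax5 and responsive replicate 3 for Cr2. Non-responsive replicate 3 was the lowest of the 6 tumours for Cd79b, Blk, Fcmr and Pou2af1 (4 of 9 members; 19.4% of all genes tested), although for Ms4a1 and Cd79a it came next after non-responsive replicate 2 and responsive replicate 1. On the log2 CPM scale, centred on each gene's mean, non-responsive replicate 3 ran from -1.14 for Pou2af1 to 0.13 for Ms4a1. Responsive replicate 1 ran from -1.01 for Pax5 to 0.51 for Fcmr. Non-responsive replicate 2 ran from 0.95 for Cd79b to 2.16 for Ms4a1, with 2.15 for Pou2af1, 2.10 for Pax5 and 2.02 for Cd79a.

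**Figure D3:**
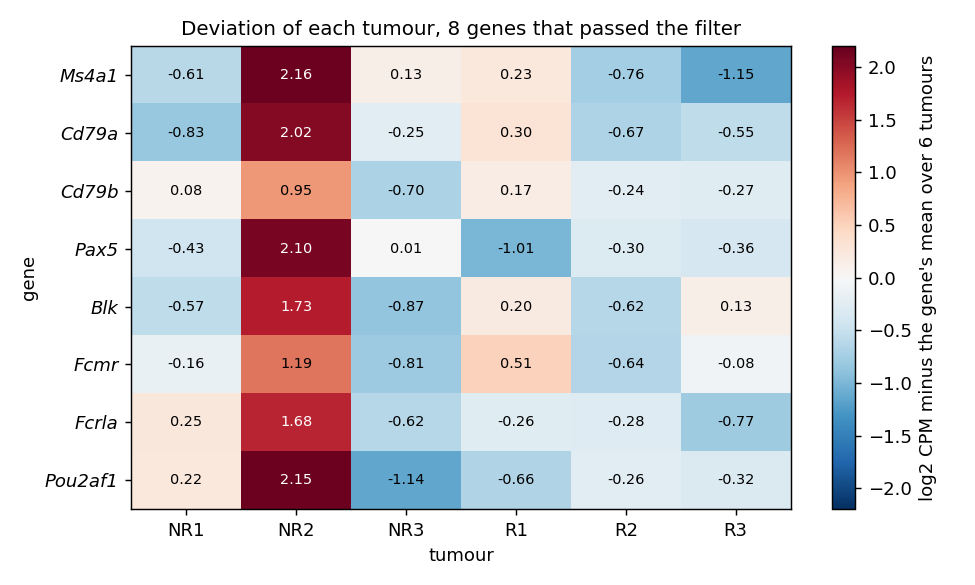
Log2 CPM of the 8 members that passed the filter (rows) in each tumour (columns), relative to that gene's own mean; red is above and blue below that mean. The NR2 column is above 0 for every gene, from 0.95 to 2.16, and no value in another column exceeds 0.51.

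Levels can be compared between genes per length, on the authors' FPKM scale. In the responsive tumours Cd79b led with 3.59 ± 0.708 FPKM, followed by Cd79a with 2.36 ± 0.913 and Pou2af1 with 2.02 ± 0.245 (SD, n = 3). A gap followed to Ms4a1 at 0.803 ± 0.415, Fcrla at 0.754 ± 0.187, Fcmr at 0.640 ± 0.269, Blk at 0.376 ± 0.123 and Pax5 at 0.337 ± 0.0436 FPKM. Cr2 was last at 0.126 ± 0.0579 FPKM. Neighbours in this order overlapped in range, except that every Pou2af1 value exceeded every Ms4a1 value and every Pax5 value exceeded every Cr2 value. In non-responsive replicate 2 the order was led by Pou2af1 at 14.1 FPKM and Cd79a at 13.5 FPKM, with Cd79b at 8.85 and Ms4a1 at 5.88 FPKM. For Pax5 and Cr2 this scale is loose: the FPKM per CPM of a gene differed up to 4.66-fold between tumours for Pax5 and 2.22-fold for Cr2, against at most 1.23-fold for the other members.

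Genes that work with the members in B cells were read from lists of the wider pathway. Of 20 genes for co-receptors and signalling of the B cell receptor, 18 were tested and 0 passed edgeR in either direction, with 6 at an unadjusted p under 0.05 (12.6% of all genes tested). DESeq2 called 1 of them, Cd72, an inhibitory co-receptor of B cells that some myeloid cells also express (2.97% of the genes it adjusted were called). Cd72 was at 29.6, 24.8 and 21.9 CPM in the non-responsive tumours and 13.6, 12.8 and 11.6 CPM in the responsive ones. The groups lay apart, and non-responsive replicate 2 was not the highest. Its log2 difference was 1.01 ± 0.22 (SE; edgeR adjusted p = 0.350, DESeq2 adjusted p = 0.0112), and 1.04 without non-responsive replicate 2. The list's median log2 difference was 0.77, with 15 above 0, and 0.29 without non-responsive replicate 2. Many of them also act in macrophages or other leukocytes. Of the 4 most abundant genes of the list, the tetraspanin Cd81 differed by -0.22 ± 0.19, the inhibitory Fc receptor Fcgr2b by 0.65 ± 0.47, and the kinases Lyn and Syk by 0.79 ± 0.31 and 0.64 ± 0.42 on the log2 scale (SE).

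Of the 14 B cell transcription factors on the list all were tested and 0 passed edgeR in either direction, with 10 above 0. The median log2 difference was 0.57, and 0.045 without non-responsive replicate 2. The most abundant, Tcf3, Foxo1, Spi1 and Bcl6, are active in many cell types and differed by -0.10 ± 0.26, -0.11 ± 0.21, 0.31 ± 0.35 and -0.041 ± 0.20 (SE). Of the 7 genes of immature B cells only Cd93, which endothelium and myeloid cells also express, passed the filter (1.96 ± 0.45 SE; edgeR adjusted p = 0.350, DESeq2 adjusted p = 0.00493). DESeq2 called 2.97% of all genes it adjusted. The recombination genes Rag1 and Rag2 and the surrogate light chain gene Igll1 had 0 counts in every tumour, where a count of 0 allows up to 3 counts, or 0.124 to 0.199 CPM. Vpreb1, Vpreb3 and Dntt had at most 11 counts in any tumour.

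Of the 8 germinal centre genes, 5 were highest in non-responsive replicate 2 (23.4% of all genes tested). Among these, Rgs13 had 10 counts there and 0 to 2 elsewhere. Gcsam was at 1.76 CPM there and 1.58 CPM in responsive replicate 1, with a log2 difference of -0.028 ± 0.73 (SE). Bcl6 and Fas were highest in non-responsive replicate 1, and Mki67 in non-responsive replicate 3. Of the 8 genes on that list 6 were tested and 0 passed edgeR in either direction (median 0.36, 4 above 0). Mki67, a gene of all dividing cells, was on it with 1.52 ± 0.29, S1pr2 with 0.60 ± 0.25 and Fas with 0.12 ± 0.37 (SE). DESeq2 called Mki67 alone of that list (adjusted p = 0.00197), where it called 2.97% of the genes it adjusted.

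Plasma cell genes gave a median log2 difference of 0.87 over 10 genes tested, 9 above 0, with 0 called by edgeR in either direction, and 0.060 without non-responsive replicate 2. Jchain, which joins secreted IgM and IgA, was at 281, 946 and 51.6 CPM in the non-responsive tumours and 195, 174 and 97.1 CPM in the responsive ones. Sdc1, Xbp1 and Prdm1, which epithelial cells also express, differed by -0.068 ± 0.30, 0.53 ± 0.20 and 0.022 ± 0.43 (SE). The immunoglobulin genes Ighm and Igkc were at 3277 and 2193 CPM in non-responsive replicate 2. In the other tumours they ran from 169 to 979 CPM and from 223 to 751 CPM. Ighd, the IgD chain of mature unswitched B cells, was at 0.530, 7.33 and 1.44 CPM in the non-responsive tumours and 3.34, 0.825 and 1.40 CPM in the responsive ones.

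The balance of plasma cell and B cell transcripts varied within both groups. For each Ms4a1 count there were 125, 59.3 and 13.4 Jchain counts in the non-responsive tumours and 47.5, 85.8 and 63.6 in the responsive ones. Non-responsive tumours held both the highest and the lowest ratio. Non-responsive replicate 2, with the most RNA of either gene, stood in the middle. The Cd79a counts per Cd79b count were 0.449, 1.82 and 1.19 in the non-responsive tumours and 0.943, 0.631 and 0.704 in the responsive ones. For each count of Cd3e, a chain of the T cell receptor complex, there were 1.06, 1.54 and 1.84 Ms4a1 counts in the non-responsive tumours and 2.27, 0.80 and 0.974 in the responsive ones. On none of these ratios did the groups lie apart.

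**Figure D4:**
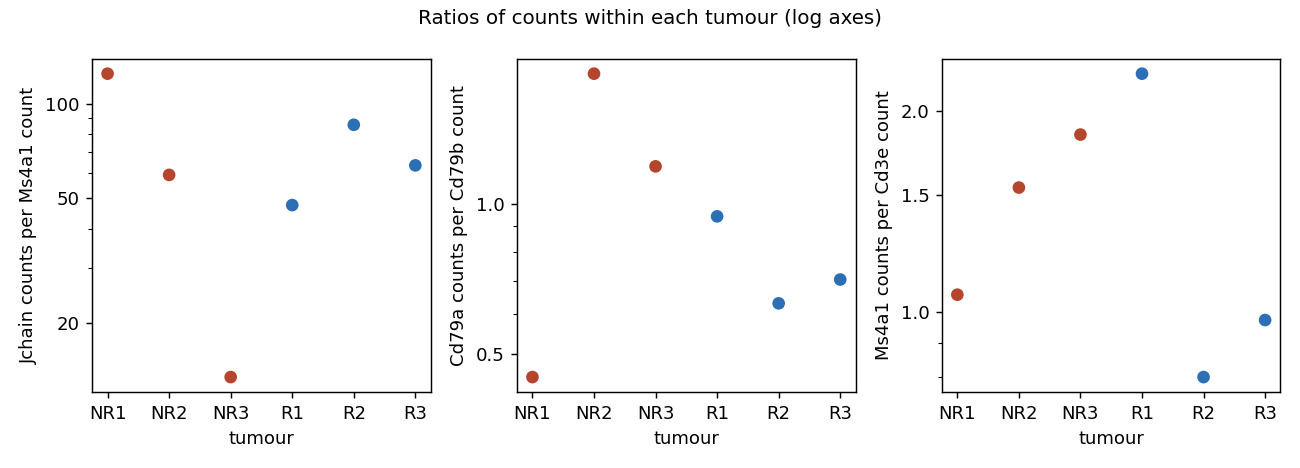
Ratios of counts within each tumour (log axes): Jchain per Ms4a1, Cd79a per Cd79b and Ms4a1 per Cd3e, in the non-responsive (NR, red) and responsive (R, blue) tumours. The groups overlap in all 3 panels, with NR1 highest (125) and NR3 lowest (13.4) for Jchain per Ms4a1.

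Markers of other cells moved with non-responsive replicate 2 as well, and their part in the values of the B cell genes was not tested. All 10 T cell markers were highest there, with a summed level of 181 CPM against 35.4 to 38.9 CPM in the other non-responsive and 25.7 to 39.0 CPM in the responsive tumours. Cd4, Lck, Cd3g and Cd2 differed by 1.23 ± 0.72, 1.32 ± 0.62, 1.60 ± 0.69 and 1.52 ± 0.74 between groups (log2, SE), and 0 of the 10 passed edgeR in either direction. Without that tumour these differences were -0.050, 0.30, 0.64 and 0.20, and the median over the T cell list was 0.25 where it was 1.42 with all tumours. The pan-leukocyte gene Ptprc was at 80.8, 263 and 102 CPM in the non-responsive tumours and 58.3, 80.2 and 30.7 CPM in the responsive ones. Its groups lay apart, as for 17.7% of all genes tested. The log2 difference was 1.40 ± 0.53 (SE; edgeR adjusted p = 0.373), and 0.72 ± 0.41 without non-responsive replicate 2. In non-responsive replicate 2 the 7 macrophage markers summed to 2712 CPM against 770 to 1893 CPM elsewhere, with 6 of them highest there. Lyz2, Csf1r, Itgam and Cd68 differed by 0.29 ± 0.47, 0.68 ± 0.34, 0.88 ± 0.42 and 0.41 ± 0.30 (SE). Of that list 0 passed edgeR in either direction and DESeq2 called 1, Fcgr1, at 1.13 ± 0.29 (SE; DESeq2 adjusted p = 0.0491). Over all genes it adjusted, DESeq2 called 2.97%. Without non-responsive replicate 2 the Lyz2 difference was -0.12, but 6 of the 7 macrophage markers were above 0. Their median was then 0.40, where it was 0.68 with all tumours. Urothelial markers, 10 in all, were lowest as a sum in non-responsive replicate 2, at 2348 CPM against 3523 to 11776 CPM elsewhere. The sum was led by Krt5 and Krt7, which with Epcam and Cdh1 were each lowest there. Upk1a, Upk1b and Upk2 stood at 1.10, 1.22 and 1.28 times the median of the other tumours. The list's median log2 difference was -2.13, and -2.09 without non-responsive replicate 2. With all tumours 8 of 10 were below 0, while Krt5 and Epcam were above it at 0.66 and 0.34. Of the 10, 0 were called by edgeR in either direction and 4 by DESeq2 (2.97% of the genes it adjusted). All 10 were detected in every tumour.

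The ratio of non-responsive replicate 2 to the median of the other 5 tumours puts these lists side by side. Over the members that passed the filter its median was 5.6, from 2.32 for Cd79b to 7.08 for Ms4a1. It was 5.51 for the T cell markers, 2.93 for plasma cell genes, 2.32 for the receptor co-receptors and signalling, 1.97 for B cell transcription factors and 1.58 for macrophage markers. For urothelial markers it was 0.643, and for all genes tested 1.02. The plasmacytoid dendritic cell list stood at 2.72 over 5 genes tested, with Siglech, its most specific gene, at 5.63 CPM in that tumour and 0.530 to 1.54 CPM elsewhere. Its most abundant genes Ly6d, Tcf4 and Bst2 stood at 0.344, 2.72 and 1.13 times the median of the other 5 tumours. Ly6d was lowest of all in non-responsive replicate 2. These abundant genes are also made by urothelium, stroma or many other cells.

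**Figure D5:**
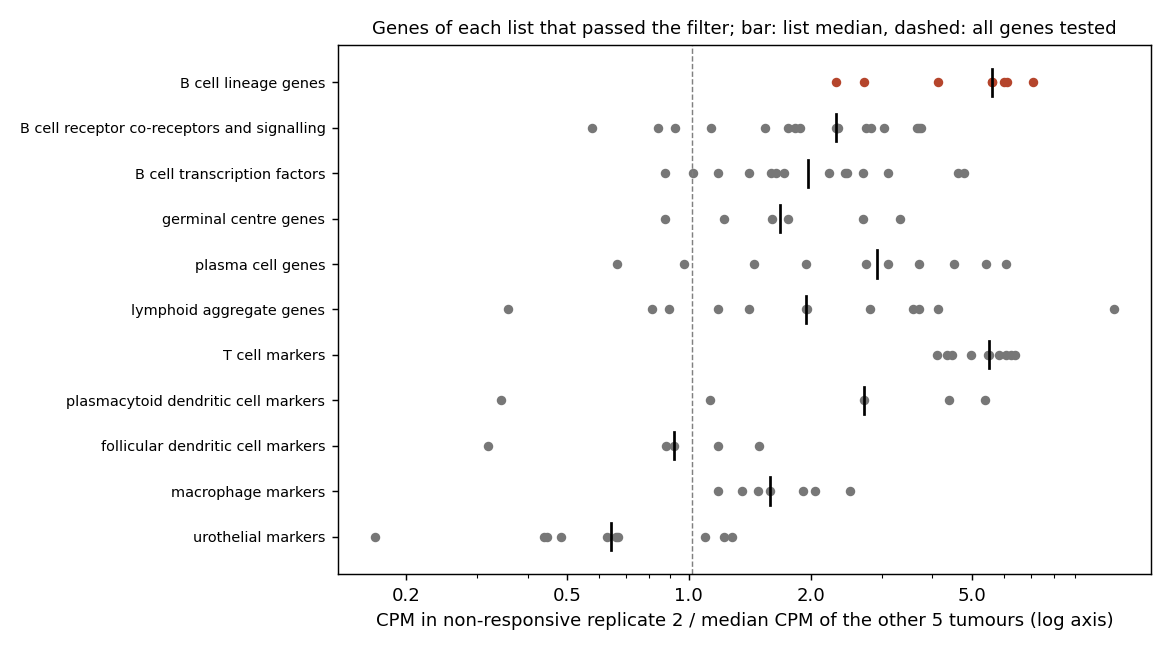
CPM in non-responsive replicate 2 divided by the median CPM of the other 5 tumours (log axis) for the genes of each list that passed the filter (points), with the list median as a bar and the median of all genes tested (1.02) as a dashed line. The B cell lineage genes (red) and T cell markers have medians of 5.6 and 5.51, and urothelial markers one of 0.643.

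Genes of lymphoid aggregates stood at 1.95 on the same ratio, with 8 of the 15 listed highest in non-responsive replicate 2. Of these 15 genes 12 were tested, 0 passed edgeR in either direction, and the median log2 difference was -0.23, with 5 above 0. Ccl21a, a chemokine that draws T cells and dendritic cells to lymphoid tissue, was at 81.8, 141 and 12.6 CPM in the non-responsive tumours and 205, 157 and 304 CPM in the responsive ones, and it has close paralogs with which it may share reads. Its responsive values all lay above the non-responsive ones (log2 difference -1.51 ± 0.75 SE; edgeR adjusted p = 0.427). Ltbr and Tnfsf13b, the latter encoding the B cell survival factor BAFF, differed by -0.27 ± 0.21 and -0.23 ± 0.48 (SE). Without non-responsive replicate 2 the Tnfsf13b difference was -0.996 ± 0.27 (SE; unadjusted p = 0.0107), and that of Ccl21a was -2.22 ± 0.80 (SE; unadjusted p = 0.0329). Tnfsf13b was highest in non-responsive replicate 2, at 29.5 CPM against 9.22 to 20.9 CPM elsewhere. Of the follicular dendritic cell list, 5 of 7 genes were tested with a median of -0.23. Among the most abundant, Clu differed by -2.08 ± 0.93, Mfge8 by 0.20 ± 0.28, Pdpn by -0.15 ± 0.41 and the B cell attracting chemokine Cxcl13 by -0.23 ± 0.80 (SE). Clu ran from 192 CPM in non-responsive replicate 3 to 3537 CPM in responsive replicate 3. The urothelial markers Krt8 and Krt18 were lowest and highest in the same tumours, and which cells gave the Clu RNA was not tested. Cxcl13 was at 13.0 CPM in non-responsive replicate 2, below the 22.3 CPM of non-responsive replicate 3 and the 25.0 CPM of responsive replicate 1. Fcer2a, which like Cr2 marks mature B cells and follicular dendritic cells, had 33 counts in non-responsive replicate 2 and 1 to 8 elsewhere.

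The genes outside the list with the most similar course over the 6 tumours were found by the root mean square difference between centred log2 CPM values and the mean course of the 8 members that passed the filter. The closest was H2-DMb2, of the MHC class II pathway, at 0.116, with 13.3 CPM in non-responsive replicate 2 and 2.86 to 3.54 CPM elsewhere. Septin1 followed at 0.130, then Tbc1d10c at 0.160, H2-Ob at 0.166, Cd7 at 0.169, Sla2 at 0.177, Pglyrp2 at 0.177, Cd3d at 0.178, Trac at 0.188 and Stat4 at 0.188. Cd3d and Trac belong to the T cell receptor. The members themselves lay 0.281 (Fcrla) to 0.488 (Ms4a1) from their own mean course. This is a description over 6 tumours, of which 1 sets most of the course.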

How the data were processed

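Bulk RNA sequencing of 6 bladder tumours was analysed, 3 labelled non-responsive and 3 responsive. Per the labels' protocols, libraries were made from total RNA with an Illumina TruSeq kit. The build was mm10 per the submitters' processing notes. Not given in the sources used here are the aligner, counter, annotation and strand setting. Per the file headers, the authors deposited estimated counts (expected counts, not normalised between tumours, 8.19 to 9.99% of them not whole) and FPKM values (scaled for length and depth). Totals were 15046178 to 23917413 counts per tumour. Every pair of libraries differed by far more than sampling noise (smallest chi-square per degree of freedom 75.7).

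Counts were rounded and tested over the whole table with edgeR 4.0.16 in R 4.3.3 (TMM, default expression filter, robust quasi-likelihood test, two-sided, Benjamini-Hochberg adjustment over 14505 genes, threshold 5%). Standard errors are the log2 difference divided by the root of the F statistic. Alternatives were DESeq2 size factors, DESeq2 1.42.0, no filter, limma 3.58.1 on log2(FPKM + 1) for genes of at least 1 FPKM in 3 tumours, the replicate number as a block, and each tumour left out. Upper quartile scaling was added after the data were seen. DESeq2 gave no adjusted p for 3152 genes. The fit was checked on simulated data. Counting intervals are exact Poisson intervals (95%).

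Coordinates, counted from 1, are from GENCODE's mouse annotation for mm10, also build GRCm38, and promoters from RefSeq. The members and gene lists were chosen with earlier results of these data known. Besides all members, the rule named the 4 genes of highest mean CPM in each list, the 10 genes most similar in course (log2 CPM with a prior count of 2), and Ighm, Ighd, Igkc and Ptprc. Some genes that this rule names are not reported here. Other genes named from the lists were chosen after their values were seen.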

Additional observations from a re-analysis of the deposited data

How the results depend on the processing

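No B cell lineage gene passed under any setting run, and for single members 88 alternative values kept the direction while 4 did not, all of them without non-responsive replicate 2. Leaving out each tumour in turn gave a median log2 difference of -0.020 to 1.54 over the members, -0.26 to 1.55 for Cd79a, -0.15 to 0.68 for Cd79b, -0.75 to 1.11 for Blk and -0.51 to 0.70 for Fcmr. The low end was in each case the value without non-responsive replicate 2. Over all genes 0 were called by edgeR under every scaling and with every tumour left out, and 447 by DESeq2. limma on log2(FPKM + 1) kept 4 members, with a median of 0.68 on that scale. Same-numbered tumours deviated from their group means with correlations over genes of -0.11, -0.087 and -0.024. Tumours of unlike number gave -0.119 to 0.192. With 3 tumours per group these values cannot decide whether the numbers pair them, and the labels do not say so. With the replicate number as a block the median was 0.72, and 0 genes and 0 members were called. At 2 to 11 counts, differences in Cr2 among the tumours other than non-responsive replicate 2 were not detectable. Ms4a1 and Pax5 overlap annotated transcripts of the opposite strand, and without a known strand setting their reads cannot be told apart. Fcrla, Pou2af1 and Pax5 overlap transcripts of their own strand, for Pax5 a microRNA, with which they may share reads.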

Other observations

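Relatives of the members in other cells, some of them neighbours on the chromosome, were read from a list. Of 25 relatives 21 were tested and edgeR called 0 higher and 0 lower (DESeq2 called 2, where it called 2.97% of the genes it adjusted), with 8 at an unadjusted p under 0.05 (12.6% of all genes tested). The median log2 difference was 0.60, and 0.43 without non-responsive replicate 2. In the family of Ms4a1, 5 of the 9 relatives listed, Ms4a4b, Ms4a4c, Ms4a6b, Ms4a6c and Ms4a6d, had every non-responsive value above every responsive one (17.7% of all genes tested lay apart in either direction). Ms4a4c was at 38.8, 33.2 and 25.8 CPM in the non-responsive tumours and 13.3, 10.3 and 6.35 CPM in the responsive ones, a log2 difference of 1.70 ± 0.33 (SE; edgeR adjusted p = 0.350, DESeq2 adjusted p = 0.00165) and the same 1.70 without non-responsive replicate 2. Ms4a4b differed by 2.09 ± 0.55 (SE; DESeq2 adjusted p = 0.0144) and by 1.32 without that tumour. Ms4a6c, the most abundant of the family, differed by 1.15 ± 0.33 (SE; edgeR adjusted p = 0.350). These close paralogs may share reads.

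Pigr, which lies 13420 bases from Fcmr and encodes the epithelial transporter of IgA and IgM, was at 56.9, 17.1 and 10.7 CPM in the non-responsive tumours and 14.5, 59.1 and 101 CPM in the responsive ones. Cr1l, 5225 bases from Cr2, ran only from 53.5 to 74.5 CPM over the 6 tumours. Fcrlb, 4635 bases from Fcrla, was at 0.663, 3.28 and 0.972 CPM in the non-responsive tumours and 1.17, 0.127 and 0.165 CPM in the responsive ones. Of the Src family, Src differed by -0.19 ± 0.26 and Lyn by 0.79 ± 0.31 (log2, SE), both broadly expressed. Ebf1, a B cell factor that stroma and adipocytes also express, was highest in responsive replicate 1, at 24.1 CPM against 22.3 CPM in non-responsive replicate 2. Blnk, the adaptor downstream of the B cell receptor, was at 40.2, 27.6 and 20.2 CPM in the non-responsive tumours and 47.7, 68.5 and 53.3 CPM in the responsive ones (-0.95 ± 0.29 SE; unadjusted p = 0.0142, edgeR adjusted p = 0.360). Only 3 of the 18 genes tested on its list were below 0. In non-responsive replicate 2 Blnk stood at 0.578 times the median of the other tumours, where the B cell lineage genes had a median of 5.6. Which cells gave its RNA was not tested. These genes were named after their values were seen.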
